A study of Mus musculus with 16 samples.

Results

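Among the accessible regions of fetal male germ cells, 935 were found in every list of peaks up to birth and were missing from the list of the third day after birth (P3). They were chosen by presence and absence in the peak lists: a peak of the *Morc1* heterozygous list of E13.5 (embryonic age in days) that overlapped, by 1 bp or more, a peak of the E13.5 knockout list, of both E16.5 lists and of the list of the day of birth (P0), and that overlapped no P3 peak. Of the 40448 peaks of the E13.5 heterozygous list, 18137 were held by the 5 earlier lists, and the 935 regions absent at P3 were 5.16% of these (95% Wilson interval 4.84 to 5.49). The other 17202 were found in all 6 lists and are called kept peaks below.

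The accessible chromatin was mapped by ATAC-seq, a method that cuts open DNA with a transposase and sequences the fragments, in germ cells isolated from the testes of mice with an Mvh-Venus transgene. This reporter puts a fluorescent protein under the promoter of the germ-cell gene *Mvh* (also called *Ddx4*). The 16 samples form 8 groups of 2: *Morc1* (+/-) cells, which carry 1 disrupted copy of *Morc1* and are the controls, and *Morc1* (-/-) cells, each at E13.5, E16.5, P0 and P3. The authors deposited 1 peak list for each group, so no value below has a spread between samples and no test across samples was possible. The P0 lists of the 2 genotypes were the same in every row, as were the P3 lists, so a loss by P3 cannot be assigned to a genotype here.

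Gonocytes are the male germ cells between the primordial germ cell and the spermatogonium. In the fetal testis they stop dividing, silence transposons and rebuild DNA methylation, and shortly after birth they divide again and give rise to spermatogonia, among them the stem cells of the testis. Early fetal germ cells also express part of the pluripotency programme of embryonic stem cells, which is shut down as they mature. The MORC1 protein, an ATPase, takes part in transposon silencing in these cells.

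Read depth and peak height are unknown, since each list gives positions only. The lists held 39559 to 67258 peaks, and the P3 list had 44760 against 67258 at P0. A peak missing from a shorter list can reflect a closed region, fewer cells in which it is open, lower depth or a peak just under the calling threshold. These cannot be told apart in the lists. Of 8 germ-cell markers, 5 or 6 had a peak at a transcription start in each list. Of 9 Sertoli-cell markers 4 or 5 had one, of 7 interstitial markers 3 to 5, of 7 Leydig-cell markers 2, of 6 endothelial markers 2 to 4 and of 7 blood markers 1 or 2. Only 6 of the germ-cell, 3 of the Sertoli-cell and 2 of the endothelial markers had an annotated start. For markers without one, a peak at either outer end of the gene was counted. One of the lost regions lay at an outer end of the Sertoli-cell marker *Wt1* (chr2:105126338-105126838, mm10). The annotated start under this region was that of the long non-coding RNA gene *Wt1os*. Of the Sertoli-cell markers *Sox9*, *Amh*, *Dhh* and *Gata4* had no start peak in any list. The 4 or 5 with a peak in each list came from the others, *Wt1*, *Clu*, *Fshr*, *Cldn11* and *Dmrt1*. The part of other cell types in the loss was not tested. *Morc1* itself had a start peak in all 6 lists, so the positions alone give no check of the genotype.

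The 6 genes below had a lost region at a transcription start among the 331 genes of 16 lists drawn up for germ-cell biology, and their promoters are shown as examples of starts under lost regions. The lost region at *Itga5* covers only part of the stretch shown. The kept promoters of *Sox2*, *Klf4* and *Klf2*, the first of the pluripotency list with a kept peak over the start, are set beside them. Each line gives the 250 bases before the annotated start, 5′ to 3′ on the strand of the gene, from RefSeq on assembly GRCm38.p6 (mm10). Capitals mark, on either strand, the 4 motifs whose shares are given with the motif results: the CCAAT box of the factor NFY, the CCGGAAG core bound by ETS factors, the TGACG core of CREB and ATF sites, and the CACGTG E-box of MYC and its relatives. These motifs were the ones found less often at lost starts.
*Utf1*, absent at P3, chr7:139943606-139943855, plus strand: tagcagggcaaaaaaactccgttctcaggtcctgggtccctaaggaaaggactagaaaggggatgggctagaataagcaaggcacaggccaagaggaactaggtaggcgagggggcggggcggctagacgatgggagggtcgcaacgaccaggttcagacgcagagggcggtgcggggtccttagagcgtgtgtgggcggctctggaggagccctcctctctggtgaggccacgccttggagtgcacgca
*Fgf4*, absent at P3, chr7:144861136-144861385, plus strand: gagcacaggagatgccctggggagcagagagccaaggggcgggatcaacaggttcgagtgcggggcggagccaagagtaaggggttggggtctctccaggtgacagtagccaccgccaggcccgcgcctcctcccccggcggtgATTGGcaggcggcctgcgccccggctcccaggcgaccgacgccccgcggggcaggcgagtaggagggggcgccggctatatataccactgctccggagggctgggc
*Tet1*, absent at P3, chr10:62887325-62887574, minus strand: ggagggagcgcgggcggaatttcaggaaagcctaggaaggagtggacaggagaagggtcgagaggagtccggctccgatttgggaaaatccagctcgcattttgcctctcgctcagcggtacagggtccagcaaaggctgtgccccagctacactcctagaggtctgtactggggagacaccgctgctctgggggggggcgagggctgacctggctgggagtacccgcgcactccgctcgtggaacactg
*Egr4*, absent at P3, chr6:85513590-85513839, minus strand: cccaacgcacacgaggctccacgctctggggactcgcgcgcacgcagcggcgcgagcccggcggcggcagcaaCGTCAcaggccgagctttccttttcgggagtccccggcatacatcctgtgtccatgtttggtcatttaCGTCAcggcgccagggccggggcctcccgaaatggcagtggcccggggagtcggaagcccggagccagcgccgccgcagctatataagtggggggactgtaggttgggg
*Wnt2*, absent at P3, chr6:18030446-18030695, minus strand: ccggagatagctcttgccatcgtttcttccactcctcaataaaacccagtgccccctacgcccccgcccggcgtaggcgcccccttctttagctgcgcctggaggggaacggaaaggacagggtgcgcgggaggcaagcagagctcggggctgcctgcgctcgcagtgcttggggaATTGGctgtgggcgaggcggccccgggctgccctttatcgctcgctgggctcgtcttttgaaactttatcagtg
*Itga5*, absent at P3, chr15:103366792-103367041, minus strand: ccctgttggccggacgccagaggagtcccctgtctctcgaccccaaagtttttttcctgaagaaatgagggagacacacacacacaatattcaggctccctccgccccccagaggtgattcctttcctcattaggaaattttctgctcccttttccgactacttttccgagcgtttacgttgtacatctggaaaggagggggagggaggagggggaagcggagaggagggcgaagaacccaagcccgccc
*Sox2*, kept, chr3:34649745-34649994, plus strand: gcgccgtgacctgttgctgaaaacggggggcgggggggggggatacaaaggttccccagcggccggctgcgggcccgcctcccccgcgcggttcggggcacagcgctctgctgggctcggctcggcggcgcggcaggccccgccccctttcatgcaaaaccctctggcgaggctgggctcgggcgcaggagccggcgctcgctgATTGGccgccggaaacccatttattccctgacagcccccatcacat
*Klf4*, kept, chr4:55532476-55532725, minus strand: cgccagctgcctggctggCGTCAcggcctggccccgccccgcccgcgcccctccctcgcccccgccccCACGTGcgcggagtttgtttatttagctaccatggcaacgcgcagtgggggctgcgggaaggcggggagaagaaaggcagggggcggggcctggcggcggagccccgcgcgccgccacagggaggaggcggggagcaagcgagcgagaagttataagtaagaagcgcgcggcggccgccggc
*Klf2*, kept, chr8:72318812-72319061, plus strand: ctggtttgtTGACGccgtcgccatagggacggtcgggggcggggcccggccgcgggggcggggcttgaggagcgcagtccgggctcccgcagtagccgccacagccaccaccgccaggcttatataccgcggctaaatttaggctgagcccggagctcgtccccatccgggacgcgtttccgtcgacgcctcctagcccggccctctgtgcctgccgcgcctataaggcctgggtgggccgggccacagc

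Those of *Utf1*, *Tet1* and *Itga5* hold none of the 4 motifs. *Fgf4* and *Wnt2* each hold 1 CCAAT box, and *Egr4* holds 2 copies of TGACG. Among the kept promoters, *Sox2* holds 1 CCAAT box, *Klf4* 1 TGACG and 1 CACGTG, and *Klf2* 1 TGACG. The GC box GGGCGG, bound by SP and KLF factors, was found in 5 of the 6 lost promoters (4 copies before *Utf1*, 2 before *Fgf4*, 1 before *Tet1*, 1 before *Wnt2* and 2 before *Itga5*) and in all 3 kept ones. Over the whole window of 300 bases, from 250 before to 50 after the start, GC content was 62% at *Utf1*, 69.7% at *Fgf4*, 61.7% at *Tet1*, 67.7% at *Egr4*, 65.7% at *Wnt2* and 58.7% at *Itga5*.

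Of the 16 lists, the pluripotency list had the most genes with a lost start, so it is named here as the largest value among lists of few genes. Of its 13 genes with a start peak in the 5 earlier lists, 3 (23.1%) had one that was absent at P3. Over all 11078 genes with such a peak the share was 2.59% (287 genes), and over all 235 listed genes it was 2.55% (6 genes). The 11078 genes all had an annotated start. Of the 330 matched listed genes 242 had one, among them 15 of the 23 of the pluripotency list. For the rest a peak at either outer end of the gene was counted, so the shares are not fully alike. The lost pluripotency starts were those of *Utf1*, which encodes a chromatin protein of embryonic stem and germ cells, *Fgf4*, a growth factor gene driven by OCT4 and SOX2 in early embryos, and *Tet1*, a dioxygenase that oxidises methylated cytosine. No P3 peak lay at a start of any of them. The other 10 kept theirs: *Sox2*, *Klf4*, *Klf2*, *Klf5*, *Tfcp2l1*, *Esrrb*, *Zfp42*, *Dppa5a*, *Tbx3* and *Nr0b1*. The loss as defined here therefore touched 3 of these 13 genes. Of all 23 genes of the list, 19 had a start peak in the E13.5 heterozygous list, 19 at P0 and 13 at P3. Start peaks that were not in all 5 earlier lists are outside the rule.

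At *Utf1* (chromosome 7, start at 139943856, plus strand) the peak of the E13.5 heterozygous list lay at chr7:139943615-139944115, centred 9 bp after the start. In the E13.5 knockout list its centre lay 27 bp after the start, and in the E16.5 heterozygous list 2 bp before it. The centre lay 43 bp after the start in the E16.5 knockout list and 12 bp before it at P0. The 5 centres thus fell within 55 bp of each other, across both genotypes and from E13.5 to birth. The nearest P3 peak was 5896 bp away.

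At *Fgf4* (chromosome 7, start at 144861386, plus strand) the E13.5 heterozygous peak lay at chr7:144861023-144861523, centred 113 bp before the start. The other centres lay 41 bp (E13.5 knockout), 135 bp (E16.5 heterozygous), 185 bp (E16.5 knockout) and 155 bp (P0) before it. All 5 were upstream of the start, over a range of 144 bp, and the nearest P3 peak was 21929 bp away.

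The *Tet1* peak (chr10:62887091-62887591, start at 62887324, minus strand) was centred 17 bp before the start in the E13.5 heterozygous list and 7 bp before it in the E16.5 heterozygous list. In the knockout lists the centre lay 6 bp (E13.5) and 88 bp (E16.5) after the start, and at P0 97 bp after it. The nearest P3 peak was 8574 bp away. *Tet1* is also the 1 gene of 14 in the DNA methylation list with a lost start, and the other 13 kept theirs.

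Each of 3 further lists had 1 lost start. *Egr4*, a zinc finger transcription factor gene, was 1 of 9 in the list of spermatogonial stem cell genes (11.1%). Its peak lay at chr6:85513401-85513901 in both E13.5 lists, base for base, and the centre lay 62 bp before the start. At E16.5 it lay 76 bp (heterozygous) and 82 bp (knockout) before it, and at P0 6 bp before it. The nearest P3 peak was 10188 bp away. *Wnt2*, a ligand of the WNT pathway, was 1 of 29 WNT signalling genes (3.45%). Its 5 centres lay 53 to 70 bp after the start, a range of 17 bp, and the E13.5 heterozygous peak was chr6:18030142-18030642. It was the farthest of the 6 from any P3 peak, at 63459 bp. *Itga5*, the alpha chain of a fibronectin receptor, was 1 of 11 adhesion and migration genes (9.09%). Its peak (chr15:103366383-103366883) was centred 156 to 205 bp after the start, with the nearest P3 peak 42656 bp away.

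**Figure D1:**
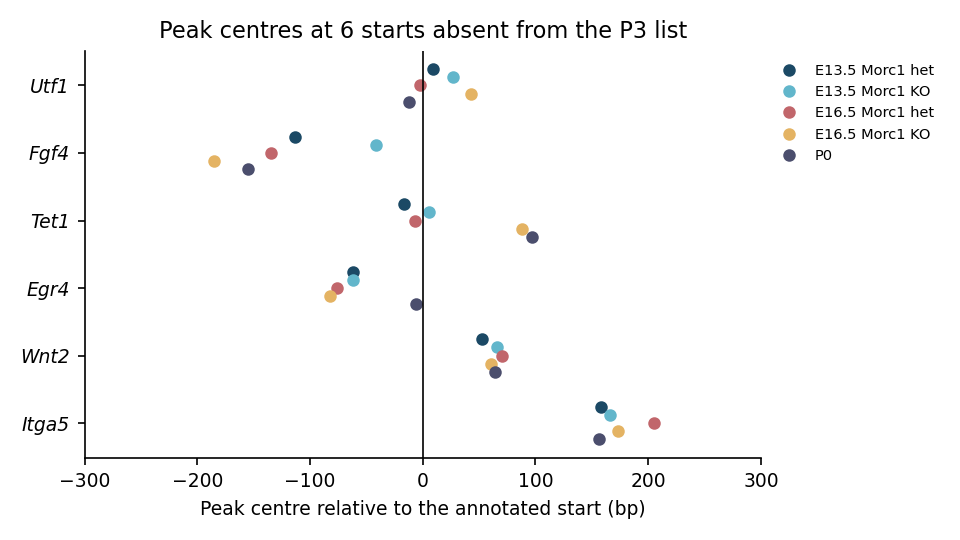
Position of the peak centre relative to the annotated transcription start (x axis, bp; negative values lie before the start) at 6 genes of the germ-cell lists whose start peak was absent from the P3 list. Each point is the peak of 1 of the 5 earlier lists; all points lie between 185 bp before and 205 bp after the start, and the P3 list has no point because it holds no overlapping peak.

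No start was lost in 11 of the 16 lists, with outer ends counted where a gene had no annotated start. All 13 piRNA and transposon silencing genes with a start peak in the 5 earlier lists kept it at P3, as did all 17 genes of H3K9 methylation and heterochromatin. The same was true of 17 meiosis genes, 10 primordial germ cell genes, 11 genes of male fate and Nodal signalling and 8 spermatogonial differentiation genes. It also held for 17 cell cycle arrest genes and 18 cell cycle entry genes, the groups nearest to the return to division after birth, and for 18 genes of BMP and TGF-beta signalling. The remaining lists were the Polycomb group (19) and chromatin remodelling (17). At the background share of 2.59%, lists of this length can hold no lost start without differing from other genes. In 6 listed genes a lost region lay elsewhere in the gene: *Esrrb*, *Etv5*, *Wnt6*, *Lrp5*, *Tcf7l1* and *Tjp1*. The share over all genes is not given here, so these genes are examples and no result about the lists. *Esrrb*, *Etv5*, *Lrp5*, *Tcf7l1* and *Tjp1* kept a peak at the start at P3, and *Wnt6* had no start peak in any list.

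Of the 287 genes with a lost start peak, 256 had no other peak at a start in the E13.5 heterozygous list. Of these, 203 had no P3 peak at any start, which is 1.83% of the 11078 genes. Among protein-coding genes 234 of 9487 (2.47%) had a lost start peak, and among long non-coding RNA genes 53 of 1591 (3.33%).

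Most of the lost regions lay away from transcription starts. Of the 907 that could be placed, 255 (28.1%, interval 25.3 to 31.1) lay within 1000 bp of a start, 378 (41.7%, 38.5 to 44.9) elsewhere in a gene and 274 (30.2%, 27.3 to 33.3) between genes. Kept peaks were at a start in 55.6% of cases (interval 54.9 to 56.4) and between genes in 17.0% (16.4 to 17.6). The lost regions thus stood at starts less often than the kept peaks, with intervals apart. Their make-up was that of the E13.5 heterozygous list as a whole, which had 29.1% at starts and 30.1% between genes. They differed from the other regions that disappeared after birth. Of all P0 peaks absent at P3, 6.06% lay at a start and 63.0% between genes, and of the 6738 regions found at E16.5 and P0 alone the shares were 3.76% and 68.0%.

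**Figure D2:**
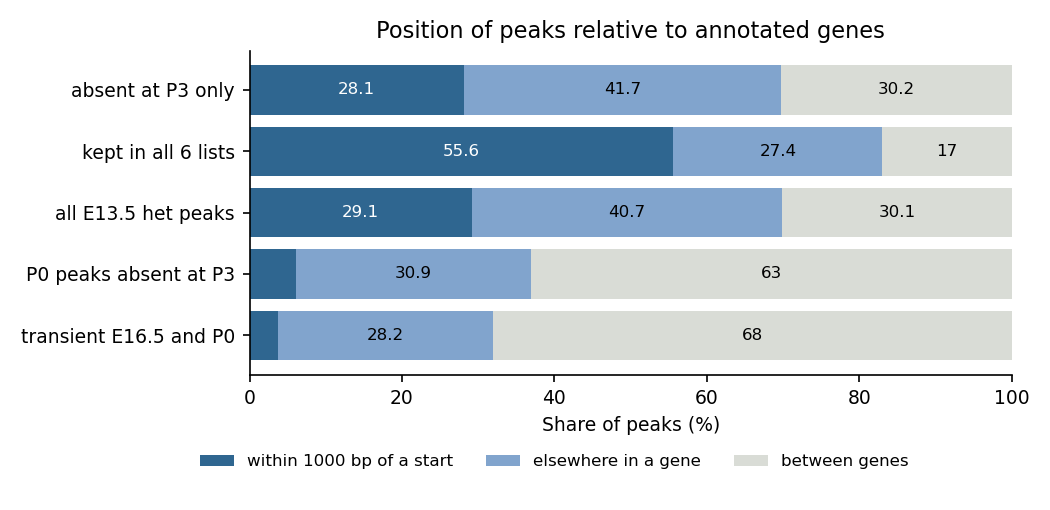
Share of peaks (x axis, %) within 1000 bp of an annotated transcription start, elsewhere in a gene and between genes; each bar is 1 set of peaks and sums to 100%. The regions absent at P3 only (top bar) have 28.1% at starts, against 55.6% of the peaks kept in all 6 lists and 6.06% of all P0 peaks absent at P3; the shortest segment, without a printed value, is 3.76%.

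Seen from the side of the 18137 peaks of the 5 earlier lists, 2.67% of those at a start (interval 2.36 to 3.01) were absent at P3. The share was 7.62% (6.91 to 8.39) elsewhere in a gene and 8.79% (7.85 to 9.84) between genes. Lost peaks at starts also lay farther from the start than kept ones, with a median of 113 bp from peak centre to start (quartiles 49 and 276.5) against 81 bp (37 and 147). Over the autosomes and X the share absent ranged from 3.45% on chromosome 1 (interval 2.55 to 4.67) to 7.41% on chromosome 19 (5.44 to 10.004), and on X it was 6.50% (37 of 569, 4.75 to 8.83). Chromosomes 1 and 19 are the extremes of that range, and the intervals of chromosomes 3, 12, 19 and X were apart from that of 1. On Y, 0 of 6 peaks were absent.

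P0 peaks found in more of the fetal lists were more often present at P3. The number of lists counts both genotypes and is not a length of time, and the part of peak height was not tested. Of all 67258 P0 peaks 44.3% were absent at P3, and of all E13.5 heterozygous peaks 43.4%. P0 peaks found in none of the 4 fetal lists were absent at P3 in 81.5% of cases (13848 of 16988). The share was 65.8% for those in 1 fetal list, 41.8% in 2, 25.2% in 3 and 5.21% (942 of 18092) in all 4. These shares use the same lists that chose the regions and are given as a description. Where the P0 peak was in 3 fetal lists, the share depended on which was missing: 25.9% without the E13.5 heterozygous, 21.8% without the E13.5 knockout, 24.98% without the E16.5 heterozygous and 34.6% without the E16.5 knockout list. P0 peaks found in both E16.5 lists and neither E13.5 list were absent at P3 in 41.6% of cases, and those of both E13.5 lists and neither E16.5 list in 42.0%. The 935 regions therefore belong to the group of P0 peaks that was least often missing at P3.

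**Figure D3:**
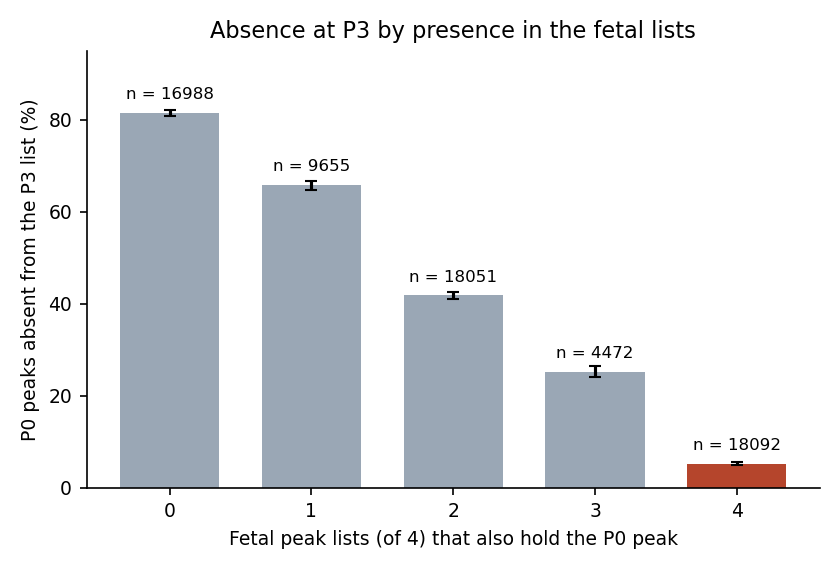
Share of P0 peaks absent from the P3 list (y axis, %) by the number of the 4 fetal lists (E13.5 and E16.5, both genotypes) in which they were also found (x axis); bars are shares, error bars 95% Wilson intervals over peaks, and n the number of P0 peaks. The share is 81.5% with 0 fetal lists and 5.21% with 4, the class of the lost regions (red).

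The lost regions varied more in position among the 5 earlier lists. The range of the 5 peak centres had a median of 123 bp (quartiles 76 and 208) in the lost regions and 86 bp (50 and 146) in the kept peaks. When the 18137 peaks were put in 5 groups by this range, 2.35% were absent at P3 where the centres fell within 4 to 45 bp, and 8.87% where they spread over 169 to 854 bp. The order held within each kind of position. At starts the shares of the tightest and the widest group were 1.10% and 5.54%, elsewhere in genes 3.99% and 11.4%, and between genes 5.90% and 12.8%. These ranges use the peak positions of the same lists that chose the regions and are given as a description. A centre that moves more can also miss a P3 peak by position alone, and 83 lost regions had a P3 peak within 500 bp. The part of this in the relation was not tested. The lists give no peak height, so its part was not tested either.

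**Figure D4:**
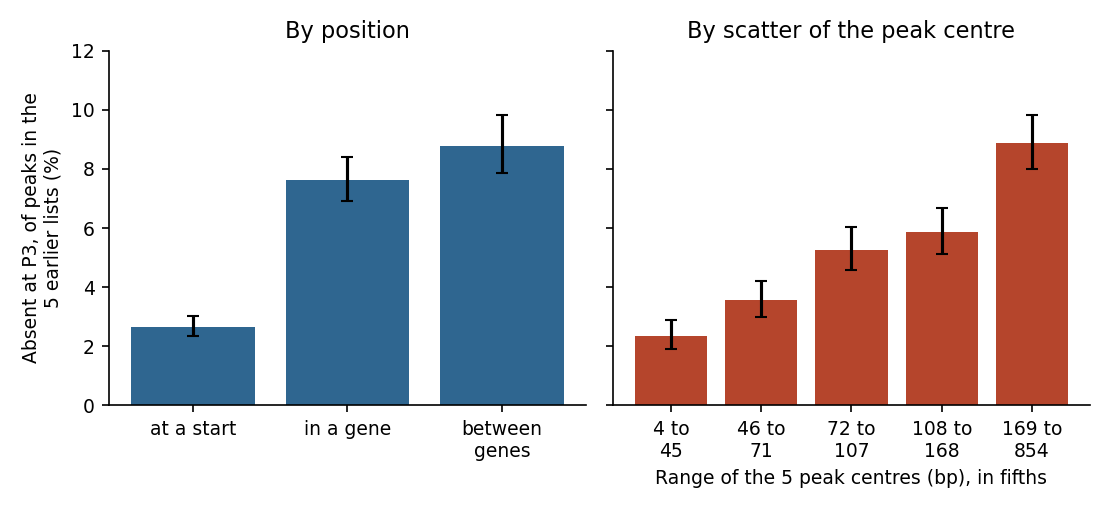
Share of the 18137 peaks of the 5 earlier lists that was absent at P3 (y axis, %), by position relative to genes (left) and by the range of the 5 peak centres in bp (right); error bars are 95% Wilson intervals over peaks. The share runs from 2.67% at starts to 8.79% between genes, and from 2.35% in the tightest group to 8.87% in the widest.

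Most of the lost regions had no P3 peak within 5 kb. Of the 935, 698 had no P3 peak within 5 kb and 82 had none within 50 kb. The median distance to the nearest P3 peak was 11437 bp (quartiles 4950.5 and 23525), at 8760 bp for those at starts, 11894 bp elsewhere in genes and 13039 bp between genes. For kept peaks the median distance to the nearest P3 peak that they did not overlap was 17164 bp, and for all P0 peaks absent at P3 it was 17366.5 bp. The distance of kept peaks passes over the P3 peak that each overlaps, and P3 peaks lay at least 505 bp apart. By the rule it is therefore not the same measure as that of the lost regions. Near the limit of the rule, 20 regions had a P3 peak 1 to 50 bp away and 83 one within 500 bp, while 27 kept peaks overlapped their P3 peak by 1 to 50 bp. By contrast 16862 of the 17202 kept peaks shared 251 bp or more with it. The farthest from any P3 peak was chrX:84001190-84001690 in *Dmd*, the dystrophin gene, at 513 kb. Next came regions in *Tmem132d* (chr5:127947141-127947641, 204 kb) and in the potassium channel gene *Kcnc2* (chr10:112464947-112465447, 194 kb). The others were a region between genes (chr11:38543934-38544434, 172 kb) and one in *4930519F16Rik* (chrX:103186342-103186842, 169 kb). The region between genes lay 1307 kb from *Tenm2*, its nearest protein-coding gene, and 24139 bp from the nearest annotated start.

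A P3 peak lay within 5 kb of 237 lost regions (25.3%, interval 22.7 to 28.2). The same regions moved by 100 kb to either side met one in 23.9% (22.0 to 25.8), an overlapping interval. Within 500 bp, however, the shares were 8.88% (7.22 to 10.9) and 4.17% (3.35 to 5.18), with intervals apart. Within 20 kb they were 70.9% (67.9 to 73.7) and 60.5% (58.3 to 62.7), also apart. A moved region that overlapped a P3 peak was counted as near one, while the rule bars such overlap for the lost regions. Each region was also counted once per direction, as if independent, so these sets are not fully alike either. Kept peaks had another P3 peak within 5 kb in 5.33% of cases, and all P0 peaks absent at P3 had one in 13.6%. The share of kept peaks leaves out the P3 peak that each overlaps, so it is not a like comparison. At P0, where both sets overlap a peak, 222 lost regions (23.7%, interval 21.1 to 26.6) had another P0 peak within 5 kb. Among kept peaks 9.38% (8.96 to 9.83) had one.

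The lost regions were spread over the genome. Their median distance to the next lost region was 665029 bp, and 148 had another within 100 kb. No stretch of 100 kb held more than 3, and 6 stretches held that many. The tightest (chr8:105254098-105283573) spans *B3gnt9*, *Tradd*, *Fbxl8*, *Hsf4* and *Nol3* and held 5 P0 peaks and 0 P3 peaks, so every P0 peak there was gone by P3. *Tradd* encodes a death domain adaptor of TNF receptor signalling and *Nol3* an inhibitor of apoptosis. Another ran from between genes up to the start of *Ssbp3* (chr4:106847792-106911584), where only its last region touched the gene. Others lay in a stretch with no coding gene (chr7:70280921-70351324), and around *Fgr* and *Ahdc1* (chr4:132945379-133039468) and *Pde8b* and *Zbed3* (chr13:95250004-95347522). No protein-coding gene held more than 2 lost regions within its bounds. The 13 that held 2 were *Abr*, *Ahdc1*, *Dtx4*, *Fat4*, *Glis3*, *Macrod1*, *Nlgn1*, *Ppp1r1a*, *Rin3*, *Rpl36*, *Rtkn2*, *Six4* and *Slitrk5*. Of these, *Fat4* (an atypical cadherin), *Ppp1r1a*, *Rpl36*, *Six4* and *Slitrk5* held no kept peak.

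The lost promoters were close to the kept ones in GC content and had fewer CpG sites for their composition. Among annotated starts, 201 windows of 188 genes had at least 150 of their 300 bases under a lost region and 9830 windows of 8971 genes under a kept peak. The *Itga5* window, with 142 bases under its lost region, is not among them. Median GC content was 65.7% in the lost and 63.3% in the kept windows, against 52.7% over all 32851 annotated starts. The ratio of observed to expected CpG was lower in the lost windows, with a median of 0.720 (quartiles 0.554 and 0.878) against 0.806 (0.664 and 0.935), and 0.384 over all starts. Of the windows with a CpG ratio under 0.4, 5.37% were lost (interval 3.71 to 7.70), and of those at 0.8 or above 1.48% (1.184 to 1.848). By GC content the share lost was 3.18% under 50%, 1.70% from 50% to 60%, 1.70% from 60% to 70% and 2.74% from 70%. Most lost starts were therefore CpG-rich promoters, and CpG-poor starts were lost at a higher rate.

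Motif matches in these windows set the lost starts apart in 4 of 25 motifs searched on both strands, each time by fewer matches. The ETS core CCGGAAG was in 6.47% of lost windows (13 of 201, interval 3.82 to 10.7), against 20.3% of kept windows (19.6 to 21.1) and 8.86% of all starts. ETS factors are common activators of housekeeping promoters. The E-box CACGTG, bound by MYC, MAX and USF factors, was in 4.48% of lost, 11.1% of kept and 7.15% of all windows. The CCAAT box of the factor NFY was in 31.3% (25.3 to 38.1), 41.4% (40.5 to 42.4) and 37.4%. The core TGACG of CREB and ATF sites was in 25.9% (20.3 to 32.3), 35.0% (34.0 to 35.9) and 20.8%. It is part of the full site TGACGTCA, which was in 2.99% of lost and 3.998% of kept windows with overlapping intervals, and it can share bases with CACGTG.

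For the other 21 motifs the intervals overlapped, and for 0 of 25 was the share of the lost windows higher with intervals apart. The GC box GGGCGG was in 68.2% of lost windows (61.4 to 74.2), 73.6% of kept windows (72.7 to 74.5) and 35.7% of all starts, so the lost starts shared this feature of CpG-rich promoters. Among windows with a CpG ratio of at least 0.6, chosen after the first shares had been seen, ETS cores were in 5.15% of 136 lost (interval 2.52 to 10.2) and 22.2% of 8069 kept windows. In the same windows CACGTG was in 4.41% and 11.997%, CCAAT in 26.5% and 39.8%, and TGACG in 27.2% and 38.2%. The YY1 motif AAGATGG, whose intervals overlapped over all windows, was apart in these, at 2.21% (0.753 to 6.28) and 7.49% (6.93 to 8.08). In the narrower class with a CpG ratio from 0.6 to 0.8, 60 lost windows against 3009 kept, ETS cores (8.33% and 19.6%) and CCAAT (26.7% and 45.1%) had intervals apart. The intervals of CACGTG (5% and 11.5%), TGACG (25% and 30.7%) and AAGATGG (1.67% and 7.54%) overlapped there. A match is a run of letters and not a measured binding site.

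**Figure D5:**
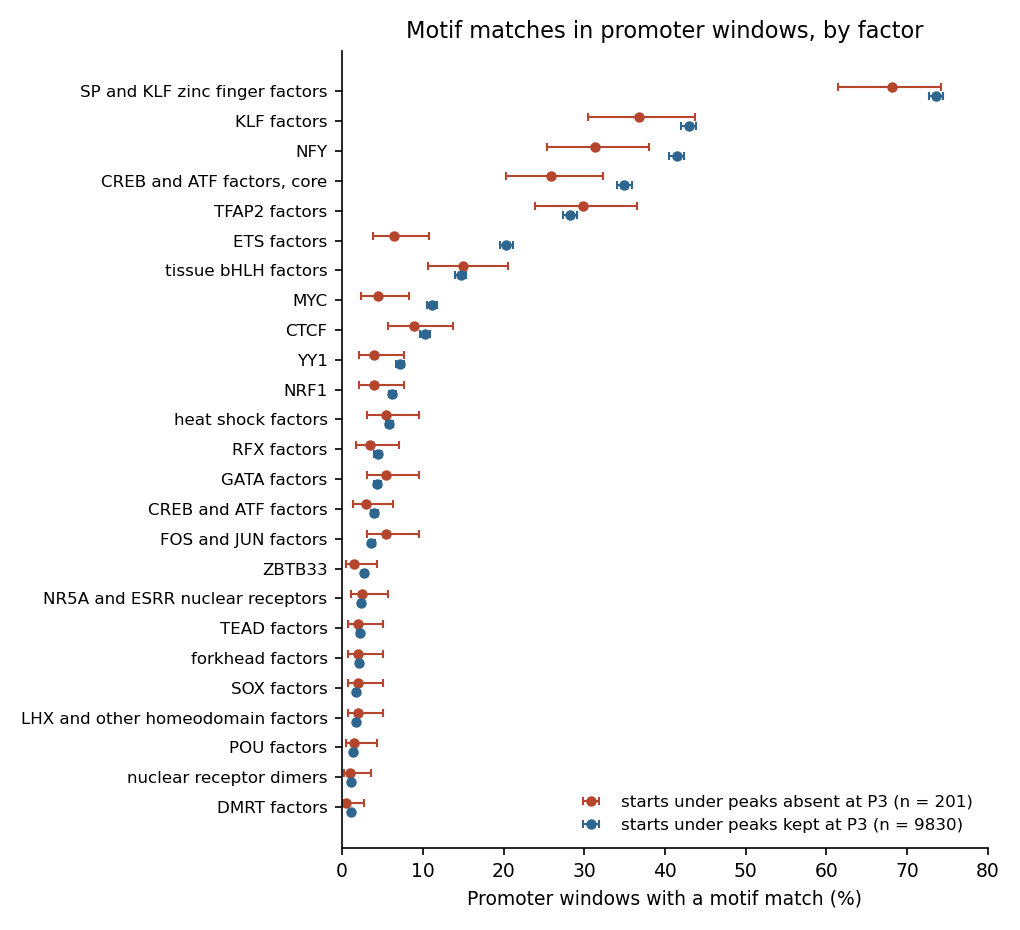
Share of promoter windows of 300 bases that hold a match (x axis, %) for 25 motifs named by the factors that bind them (y axis), in 201 windows under regions absent at P3 (red) and 9830 under peaks kept at P3 (blue); error bars are 95% Wilson intervals over windows. The intervals are apart for NFY, the CREB and ATF core (labelled core), ETS factors and MYC, each lower in the lost windows (for ETS 6.47% against 20.3%).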

How the data were processed

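Germ cells of 16 samples in 8 groups, named by the sample titles, gave 8 deposited peak lists, 1 per group. The values the authors deposited are the chromosome, start and end of each peak, 501 bp wide except for 0 to 3 peaks per list, with no score. Peaks were on mm10, and the tools used were bcl2fastq 2.20, cutadapt 1.18, Bowtie2 2.3.4.1, deepTools 3.5.0 and HOMER 4.10, per the submitters' processing notes, which give no role, threshold or pooling. A fixed width keeps the position of a peak and not its breadth.

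Members were found with overlaps of at least 1 bp, equal in number to those of bedtools 2.31.1. They were also tested on simulated data (900 of 900 left-out peaks found among 18000). The simulated peaks lay far apart and overlapped widely, so this checks the code only and does not try the limit of the rule. Positions used RefSeq transcription starts (GRCm38.p6, 32851 starts of 27025 genes). Starts of chromosome 18 were not used here, so 28 members were not placed, and for listed genes without a start both outer ends of the gene were used. Of the 331 listed genes 330 matched. No genome sequence was used, so composition and motifs planned for whole peaks were taken from promoter windows of 300 bases. Wilson intervals (95%) cover counting over peaks, not samples. The members and lists were chosen with earlier results of these data known. Named are listed genes with a member within 1000 bp of a start, the genes and stretches of 100 kb with most members, and the 5 members farthest from P3 peaks; ties in number of members were named as well, except 1 stretch that is not reported here, and the 3 kept promoters printed were chosen after the results were seen. Alternatives were a reciprocal overlap of 50%, wider gaps to P3, P0 peaks as units, heterozygous lists only, autosomes, other windows, and the central 200 bases. Python 3.11.15 with pandas 2.3.3 and numpy 2.4.6 was used.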

Additional observations from a re-analysis of the deposited data

How the results depend on the processing

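No paired analysis was possible because a list belongs to a whole group, with nothing per replicate; leaving out replicates was impossible for the same reason. Without a test, values were compared with the 95% interval around the reported value: of 34 recomputed shares and medians 20 stayed inside and 14 left it. The share absent at P3 became 5.61% with a reciprocal overlap of 50%, 4.698% and 3.848% when no P3 peak was allowed within 500 bp and 5 kb, and 7.489% with heterozygous lists only. The share at a start became 25.18% and 23.34% with these gaps, 23.04% with heterozygous lists only and 24.92% with protein-coding genes only; kept peaks had 52.0% to 55.8% at starts under the same alternatives that change the sets. The share between genes became 33.53% with the 5 kb gap, 34.39% with heterozygous lists only and 41.12% with protein-coding genes only. The share with a P3 peak within 5 kb became 35.85% with reciprocal overlap and 18.08% with the 500 bp gap, and 70.91% had one within 20 kb. Stricter rules for absence remove members and looser ones add them by construction; otherwise the cause was not tested. With P0 peaks as units, or autosomes only, every recomputed value stayed inside its interval. Of 25 motif shares recomputed in the central 200 bases 16 stayed and 9 moved. A shorter window can hold only as many matches or fewer. The ETS core and TGACG moved, to 3.48% and 17.9% of lost windows, against 14.6% and 26.8% of kept windows. CCAAT and CACGTG stayed, at 25.9% and 3.48% of lost windows, against 35.8% and 8.24% of kept windows. The near-P3 share with the 5 kb gap has no value by construction. Motifs in members between genes, and sequences of whole peaks, were not run without a genome sequence. The depth of the lists is unknown.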

Other observations

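Starts of developmental transcription factor genes were often among those lost. The families were grouped by symbol after the names of the genes had been seen, and a narrower grouping was tried first, so the shares are a description only. Of 105 genes of homeobox, T-box, SOX, forkhead, GATA, TFAP2, RUNX, DMRT, basic helix-loop-helix and related zinc finger families with a start peak in the 5 earlier lists, 19 (18.1%) had one absent at P3, against 215 of 9382 other protein-coding genes (2.29%). They were *Ascl5*, *Atoh8*, *Barx1*, *Bhlha9*, *Dmbx1*, *Dmrta2*, *Emx1*, *Foxr2*, *Glis3*, *Gsx2*, *Hand2*, *Hhex*, *Pax2*, *Runx3*, *Sall2*, *Six4*, *Tbx21*, *Tbx22* and *Tfap2d*. In 17 of the 19 no other start peak had been present at E13.5 and none was present at P3. Examples are *Pax2* (chr19:44746507-44747007), a regulator of kidney and ear development, *Hand2* (chr8:57321371-57321871), of heart and limb, *Gsx2* (chr5:75075511-75076011), of the forebrain, and *Hhex* (chr19:37434443-37434943), of liver and foregut endoderm, with the nearest P3 peak 19596, 6660, 7999 and 57913 bp away. The share was 0 of 3 in the Hox clusters, 0 of 6 in SOX genes and 1 of 54 in ribosomal protein genes. Without these families the ETS core was in 6.81% of 191 lost and 20.5% of 9765 kept windows.

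Some other genes with a lost start, picked singly after their values were seen and standing for no group, were *Fgf18*, a growth factor (chr11:33147684-33148184), *Gdf11*, a TGF-beta family ligand (chr10:128891500-128892000), *Notch3*, a receptor (chr17:32166653-32167153), and *Dlk1*, an imprinted gene for a membrane protein (chr12:109453051-109453551). *Trim71*, which encodes an RNA-binding ubiquitin ligase of early embryos and germ cells, lost its start peak as well (chr9:114563249-114563749), with no P3 peak within 64510 bp. The histone genes *H3c2* and *H2ac4* shared 1 lost region (chr13:23752070-23752570).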
